A study of Mus musculus with 58 samples.

Results

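The 10 genes described here are markers and mediators of reactive gliosis. They were taken by symbol from the table of read counts, in which all 10 were found among 52459 gene symbols. All 10 had enough reads to be tested, beside 17317 genes tested over all time points and 18814 tested with genotype and time point as groups. They are the signalling genes Stat3 and Socs3, the ligands Edn2 and Fgf2, the intermediate filaments Gfap and Vim, and the secreted proteins Serpina3n, Lcn2, Cp and C4b. The comparisons are between genotypes, between times of day, and of the time course of each genotype with that of the other.

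Retinas came from male C57BL/6 mice, either heterozygous for the Ins2Akita allele and hyperglycemic (diabetic group) or littermates without it (control group). The Ins2Akita allele makes an insulin that misfolds and damages pancreatic beta cells. It is carried by every cell of the animal, and the diabetes is systemic. All mice were 4 months old, lived under 12 h of light and 12 h of darkness, and were perfused with saline before dissection. They were collected at ZT1, 5, 9, 13, 17 and 21, where ZT is the time in hours after lights on. There were 5, 6, 5, 5, 5 and 4 control libraries and 5, 5, 5, 4, 4 and 5 diabetic libraries at these times, 30 and 28 in all. The libraries were described as biological replicates, but the labels do not say whether each came from a separate mouse. The p-values below therefore measure only the spread between these libraries, and n counts libraries.

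Reactive gliosis is the response of Müller glia and astrocytes to injury or metabolic stress in the retina. Cytokines of the interleukin 6 family signal through the receptor gp130 to STAT3, a transcription factor whose targets include its own inhibitor SOCS3 and the filament protein GFAP. In the healthy retina GFAP is mainly made by astrocytes of the nerve fibre layer, while vimentin is also made by resting Müller glia, and stressed photoreceptors can signal to Müller glia through endothelin 2.

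The promoters of the members were searched for the STAT binding motif TTCNNNGAA, which reads the same on both strands, because Stat3 is itself a member. RefSeq promoter entries of 300 bases (GRCm38.p6, 250 before and 50 from the start of the transcript) were at hand for 9 of the 10 members. The motif was present in the entries of 2 members, Gfap and Socs3, and in 8.30% of all 32851 promoters. The bases before the transcript start of these 2 are given from 5′ to 3′ on the strand of the gene, with the motif in capitals. That of Gfap covers chr11:102897194-102897450 on the minus strand and runs on to the end of the motif, which spans positions -2 to 7 around the start. That of Socs3 covers chr11:117969367-117969616 on the minus strand and has the motif from position -154 to -146. The letters are a match only, and no binding was measured.
Gfap: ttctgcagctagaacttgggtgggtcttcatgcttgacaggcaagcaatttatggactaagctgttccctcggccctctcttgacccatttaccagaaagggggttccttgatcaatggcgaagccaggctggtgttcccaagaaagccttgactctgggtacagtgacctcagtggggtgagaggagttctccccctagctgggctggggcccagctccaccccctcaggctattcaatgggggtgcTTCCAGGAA
Socs3: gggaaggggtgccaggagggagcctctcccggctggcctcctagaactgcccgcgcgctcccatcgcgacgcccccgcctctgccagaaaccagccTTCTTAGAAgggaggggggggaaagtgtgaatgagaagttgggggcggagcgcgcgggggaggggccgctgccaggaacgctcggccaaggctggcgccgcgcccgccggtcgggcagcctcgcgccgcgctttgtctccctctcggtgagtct

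Counted reads ranged from 7773117 to 22147398 per library. Levels are given as CPM, read counts scaled to library size with edgeR's TMM factors. The libraries expressed Müller glia markers, whose 10 genes summed to 3577 to 4890 CPM in control and 3431 to 5064 CPM in diabetic retinas, and none of the 10 passed the test between genotypes. Markers of other cell types did pass over all time points. The cone genes Pde6h and Gnat2 were lower in diabetic retinas, with log2 fold changes of -0.14 and -0.12, as was the microglia gene Cx3cr1, with -0.22. The myelin gene Mbp and the amacrine gene Chat were higher, with 0.16 and 0.20. None of the 5 astrocyte markers passed, and all 5 had positive values with a median of 0.17. The part of these shifts in the members' differences was not tested. Opsins and other rod genes were abundant, 5 of the 6 neutrophil and monocyte markers had a median of 0 (Ly6g was at 0 in all 58 libraries, while Lyz2 had a median of 1.00 CPM), and haemoglobin transcripts were near 0 in most libraries. Some libraries stood apart. In 3 control libraries the 7 lens markers summed to 2754 CPM (ZT1 replicate 6), 1807 CPM (ZT17 replicate 5) and 2059 CPM (ZT21 replicate 2), against 64.5 CPM or less in all others. In diabetic ZT21 replicate 4 the 8 oligodendrocyte markers summed to 114.9 CPM, against 80.5 CPM or less in all others. Where leaving out these 4 libraries ended a call or moved a value described below, the value without them is given for the main cases.

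Per kilobase of annotated exon, Vim and Cp were the most abundant members in control retinas, with 17.9 ± 3.45 and 15.02 ± 1.60 CPM per kb (SD, n = 30), which overlapped within their spread. Stat3 followed with 7.23 ± 0.613 and Fgf2 with 3.84 ± 0.523 CPM per kb (SD, n = 30), and neither overlapped its neighbours within 1 SD. Serpina3n, Gfap, Socs3 and C4b lay between 1.71 and 1.14 CPM per kb, and Edn2 and Lcn2 were lowest at 0.809 and 0.755 CPM per kb, and none of these neighbours differed beyond the spread. The order of the first 4 was the same in diabetic retinas. Edn2 and Lcn2 rested on a median of 16 and 30 reads per library, and the SE of the log2 fold change between genotypes was 0.15 and 0.11, against 0.23 for Serpina3n, the largest of the members, and 0.03 for Stat3, the smallest. Exons shared with a gene on the opposite strand could affect the counts of Fgf2 (Nudt6), Stat3 (Stat5a) and Cp (Hps3). The strand setting of the counting is not given in the sources used here. C4b shares much of its sequence with C4a, which had a median of 2.74 CPM, and how reads matching both genes were treated is not given.

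**Figure D1:**
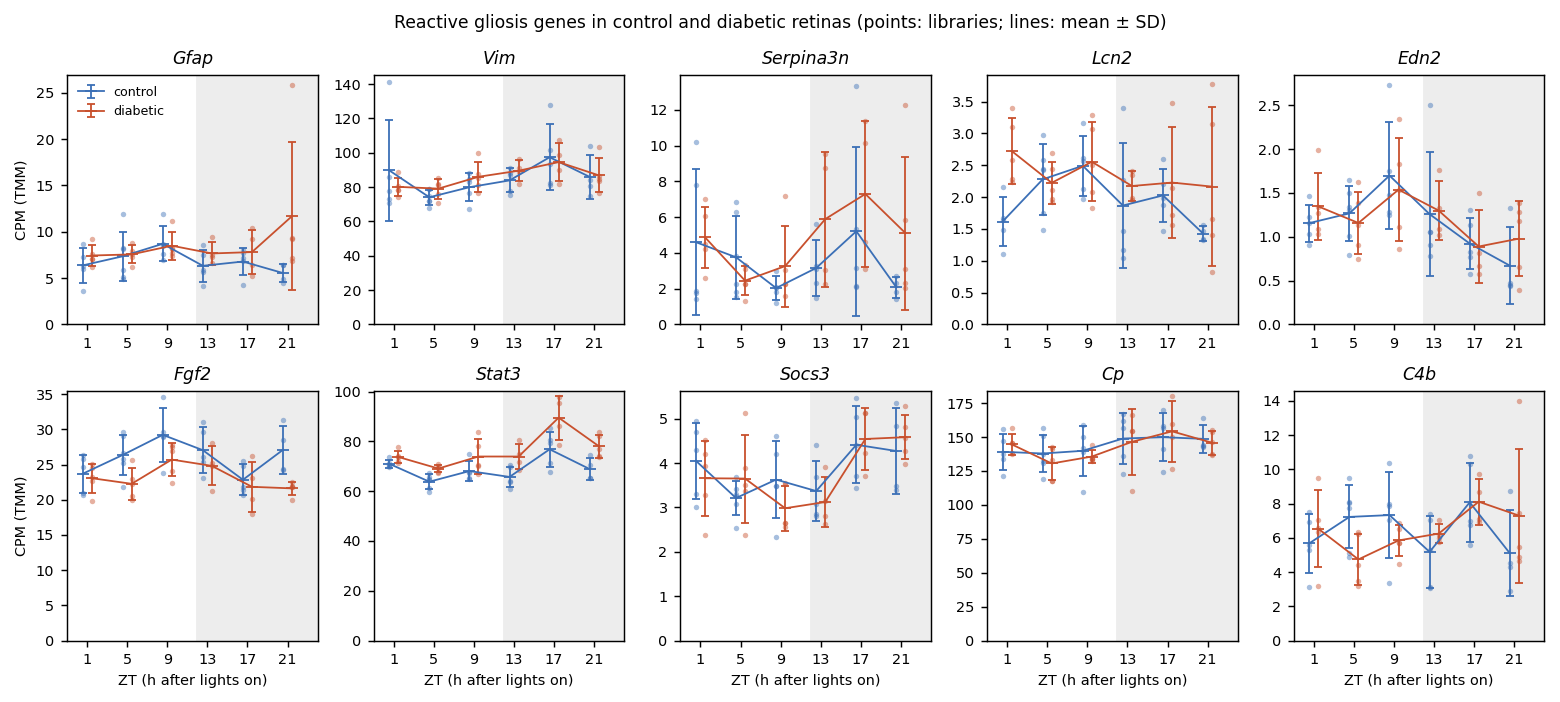
Level of each member in CPM (y axes, starting at 0) against ZT in hours (x axes) in control (blue) and diabetic (orange) retinas, with 1 point per library, lines through group means and bars of 1 SD; grey marks the dark phase. Stat3 peaked at ZT17 in each genotype, at 76.8 CPM in control and 89.5 CPM in diabetic retinas, and the highest Gfap point, at 25.9 CPM, is diabetic ZT21 replicate 4.

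Over all time points, 2 of the 10 members differed between genotypes with an adjusted p-value under 0.05, where 3.41% of all tested genes did. Stat3 was higher in diabetic retinas, as were 1.88% of all genes, and Fgf2 was lower, as were 1.53%. The median log2 fold change of the members was 0.01, beside 0.00 for all genes. At single time points none of the members passed in edgeR's or DESeq2's test, where the share of all genes called was 0.0106% (ZT1), 0.0213% (ZT5), 0.00532% (ZT9), 0.175% (ZT17) and 0% (both ZT13 and ZT21). Without adjustment, 5 members had a p-value under 0.05 at ZT21, 2 at ZT5, 1 each at ZT1, ZT13 and ZT17, and none at ZT9. The ZT21 count became 3 without diabetic ZT21 replicate 4, 4 without the lens-rich libraries, and 0 without all of these. Among all 18814 genes, 1033, 1148, 836, 843, 1682 and 878 had an unadjusted p-value under 0.05 at the successive time points. DESeq2 called 0 and 4 genes at ZT13 and ZT21, where edgeR called none.

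Stat3 (chromosome 11, 100885098 to 100939540, minus strand) encodes the transcription factor that carries gp130 cytokine signals to the nucleus. Its level ranged from 59.5 to 85.2 CPM with a median of 67.7 in the 30 control libraries, and from 66.8 to 97.9 CPM with a median of 73.8 in the 28 diabetic libraries. The groups overlapped between 66.8 and 85.2 CPM. The log2 fold change was 0.14 ± 0.03 (SE), or 1.103-fold, with an adjusted p-value of 0.00925 by edgeR's quasi-likelihood test. The call held in all 58 fits that left out a library and without the lens-rich libraries, where the adjusted p-value was 0.00854. It was lost without ZT13, at an adjusted p-value of 0.0502, and without ZT21, at 0.0781, and the adjusted p-value with time point as a factor was 0.000124.

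The mean of Stat3 was higher in diabetic retinas at all 6 time points. At ZT5 the control libraries held 59.5, 65.7, 64.6, 61.1, 67.1 and 64.7 CPM, with a median of 64.7, and the diabetic libraries 71.0, 67.3, 67.6, 69.5 and 70.03 CPM, so that the lowest diabetic library lay just above the highest control. At ZT17 control libraries held 79.3, 67.8, 85.2, 71.4 and 80.4 CPM and diabetic libraries 78.6, 95.4, 86.2 and 97.9 CPM. These overlapped through the lowest diabetic library, and the log2 fold change was 0.22 ± 0.06 (SE) with an adjusted p-value of 0.135. Leaving out that library, diabetic ZT17 replicate 1, gave an adjusted p-value of 0.0308, and over all alternatives it ranged from 0.0308 to 0.578. At ZT21 the log2 fold change was 0.18 ± 0.06 (SE) and at ZT13 it was 0.17 ± 0.07 (SE), neither past the threshold after adjustment.

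Socs3 (chromosome 11, 117966079 to 117970047), the feedback inhibitor of gp130 and STAT3 signalling, showed no genotype difference. It ranged from 2.34 to 5.47 CPM with a median of 3.49 in control retinas and from 2.38 to 5.29 CPM with a median of 3.79 in diabetic retinas. Its log2 fold change was -0.01 ± 0.09 (SE), with a 95% interval from -0.18 to 0.16 and an adjusted p-value of 0.975. The ranges of the genotypes coincided almost fully.

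Fgf2 (chromosome 3, 37348346 to 37410108), a growth factor that protects photoreceptors, was lower in diabetic retinas. It ranged from 20.6 to 34.7 CPM with a median of 25.7 in control libraries and from 18.0 to 28.1 CPM with a median of 22.8 in diabetic libraries. The ranges overlapped, and the log2 fold change was -0.17 ± 0.05 (SE), or 0.892-fold, with an adjusted p-value of 0.0378. This call was close to the threshold. It was lost in 17 of the 58 fits without 1 library, with adjusted p-values from 0.0507 to 0.0592. These libraries were control ZT5 replicates 1 and 3, control ZT9 replicates 1, 2, 3 and 5, control ZT13 replicates 1 and 4, control ZT21 replicates 1 and 2, diabetic ZT1 replicate 1, diabetic ZT5 replicates 4 and 5, diabetic ZT13 replicate 5, diabetic ZT17 replicates 3 and 4, and diabetic ZT21 replicate 4. Without ZT21 the adjusted p-value was 0.213 and without ZT5 it was 0.167. Without the lens-rich libraries it was 0.0424, and without these and the myelin-rich one 0.0625, where the log2 fold change was -0.16 ± 0.05 (SE). Over the 58 fits without 1 library the log2 fold change ranged from -0.18 to -0.15.

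Among single time points the log2 fold change of Fgf2 was lowest at ZT21. In that comparison control libraries held 28.5, 31.3, 24.3 and 24.3 CPM and the diabetic libraries 21.9, 21.8, 21.8, 20.03 and 22.5 CPM. The groups did not overlap, and the log2 fold change was -0.32 ± 0.10 (SE) with an unadjusted p-value of 0.00328 and an adjusted p-value of 0.593 in edgeR. The highest control there is the lens-rich library and the lowest diabetic library the myelin-rich one. Without the lens-rich libraries the value was -0.25 ± 0.11 (SE), and without all 4 it was -0.22 ± 0.12 (SE) with an unadjusted p-value of 0.0639 in edgeR. At ZT5, where the groups overlapped, the log2 fold change was -0.25 ± 0.10 (SE). At ZT17 the means were 22.8 ± 2.19 CPM (SD, n = 5) in control and 21.8 ± 3.56 CPM (SD, n = 4) in diabetic retinas, well within the spread.

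Edn2 (chromosome 4, 120161206 to 120167360), the endothelin that stressed photoreceptors release, did not differ between genotypes. It ranged from 0.436 to 2.73 CPM in control and from 0.393 to 2.35 CPM in diabetic retinas, with medians of 1.15 and 1.16 CPM. The log2 fold change was 0.00 ± 0.15 (SE), with a 95% interval from -0.30 to 0.30. It changed sign when single libraries or time points were left out.

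Gfap (chromosome 11, 102887336 to 102900912), the filament gene most used as a sign of gliosis, was higher in diabetic retinas on average but did not pass the test. It ranged from 3.58 to 11.9 CPM with a median of 6.91 in control and from 5.198 to 25.9 CPM with a median of 7.62 in diabetic libraries. The log2 fold change was 0.31 ± 0.11 (SE), with an adjusted p-value of 0.125 in edgeR and 0.111 in DESeq2. The value depended on a single library. Without diabetic ZT21 replicate 4 the log2 fold change was 0.19 ± 0.09 (SE) and the adjusted p-value 0.290, and without the whole of ZT21 they were 0.13 ± 0.10 (SE) and 0.634.

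At ZT21 Gfap was at 6.402, 4.44, 4.95 and 6.36 CPM in control libraries. In diabetic libraries it was at 6.82, 9.26, 9.33, 25.9 and 7.19 CPM, all above the highest control. The log2 fold change there was 1.09 ± 0.27 (SE), or 2.13-fold, with an adjusted p-value of 0.180. Without diabetic ZT21 replicate 4 it was 0.55 ± 0.23 (SE), with an adjusted p-value of 1.00. That library also held the highest C4b level, at 14.0 CPM, the highest Lcn2 level, at 3.78 CPM, and the highest Serpina3n level among diabetic libraries, at 12.2 CPM. Its myelin transcripts were the highest of all libraries as well, with Mbp at 69.8 CPM against a median of 38.9 and Mobp at 7.24 CPM against a median of 0. Its summed astrocyte markers were also the highest of all libraries, at 64.8 CPM, followed by 60.2 CPM in diabetic ZT13 replicate 1. Oligodendrocytes and myelin belong to the optic nerve and are normally absent from the mouse retina. The part of optic nerve tissue or of astrocytes in these levels was not tested.

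Vim (chromosome 2, 13573927 to 13582826) encodes vimentin, the filament of resting and reactive Müller glia, and did not differ between genotypes. It ranged from 67.2 to 141.6 CPM with a median of 80.8 in control and from 71.0 to 107.6 CPM with a median of 83.9 in diabetic libraries. On the log2 scale the difference was 0.01 ± 0.05 (SE) with an adjusted p-value of 0.948. The lens-rich control libraries were high, with 141.6 CPM at ZT1, 128.1 CPM at ZT17 and 104.2 CPM at ZT21. Without these 3 the log2 fold change was 0.09 ± 0.04 (SE), with an adjusted p-value of 0.211. The lens also expresses Vim.

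Among the secreted proteins, Lcn2 (chromosome 2, 32384633 to 32388252), which encodes the iron-siderophore carrier lipocalin 2, was at 1.04 to 3.396 CPM in control and 0.830 to 3.78 CPM in diabetic libraries. Its log2 fold change was 0.25 ± 0.11 (SE), with an adjusted p-value of 0.250. The difference was largest at ZT1. Control libraries there held 2.16, 1.68, 1.11, 1.49 and 1.64 CPM and diabetic libraries 2.59, 2.29, 2.23, 3.11 and 3.405 CPM. These groups did not overlap, and the log2 fold change was 0.76 ± 0.27 (SE) with an unadjusted p-value of 0.00636 and an adjusted p-value of 0.619 in edgeR. Without ZT1 the change over the remaining times was 0.15 ± 0.13 (SE).

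Serpina3n (chromosome 12, 104406729 to 104414329), a serine protease inhibitor strongly made by reactive astrocytes, was the most variable member. It ranged from 1.19 to 13.3 CPM with a median of 2.27 in control and from 1.31 to 12.2 CPM with a median of 3.09 in diabetic libraries. Its log2 fold change was 0.41 ± 0.23 (SE), with an adjusted p-value of 0.392. Single libraries within a group differed several-fold. At ZT17 control libraries held 13.3, 2.16, 5.31, 2.11 and 3.13 CPM and diabetic libraries 10.1, 11.4, 4.59 and 3.08 CPM.

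Cp (chromosome 3, 19957054 to 20009145), which encodes the copper ferroxidase ceruloplasmin, was at 143.7 ± 15.3 CPM (SD, n = 30) in control and 142.4 ± 15.2 CPM (SD, n = 28) in diabetic retinas. The log2 fold change was -0.01 ± 0.04 (SE), with a 95% interval from -0.09 to 0.07, the narrowest of the members beside that of Stat3. C4b (chromosome 17, 34728380 to 34743882), a component of the classical complement pathway, was at 6.502 ± 2.28 CPM (SD, n = 30) and 6.41 ± 2.21 CPM (SD, n = 28). Its log2 fold change was -0.01 ± 0.13 (SE). At ZT5 C4b was at 7.22 ± 1.84 CPM (SD, n = 6) in controls and 4.74 ± 1.49 CPM (SD, n = 5) in diabetics, an unadjusted p-value of 0.0301 and an adjusted p-value of 0.730 in edgeR, and the groups overlapped.

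**Figure D2:**
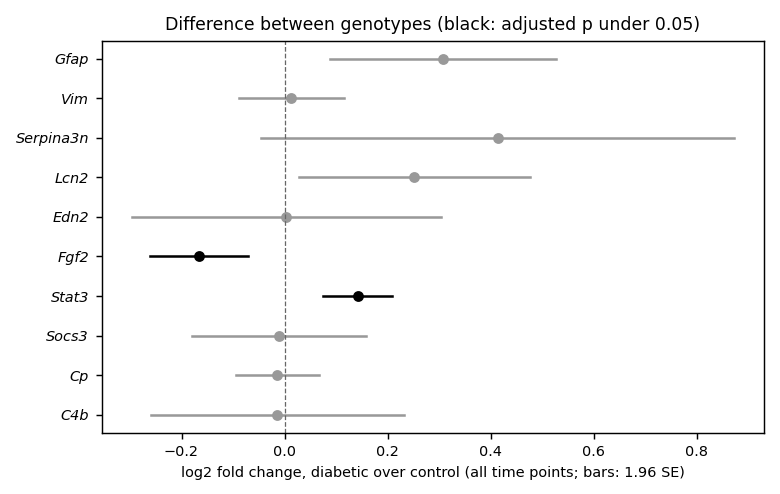
Log2 fold change of diabetic over control retinas over all time points (x axis) for each member (y axis), with bars for an approximate 95% interval. The bars use an SE derived from edgeR's fold change and F statistic, and black marks an adjusted p-value under 0.05. Stat3 at 0.14 and Fgf2 at -0.17 are black, while Gfap at 0.31 and Serpina3n at 0.41 have larger values but wider bars.

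Members were next compared over the day. A time effect, tested in edgeR as any difference among the 6 time points of a genotype, was found for 1 of 10 members in control retinas, where 9.25% of genes passed, and for 2 of 10 in diabetic retinas, where 10.2% passed. Stat3 passed in each, with adjusted p-values of 0.0149 and 0.000609, and Socs3 passed in diabetic retinas with 0.0378. With the replicate number as a block, 3 members passed in control retinas (Stat3, Vim and Edn2). In control retinas Stat3 was lowest at ZT5, at 63.8 ± 2.89 CPM (SD, n = 6), and highest at ZT17, at 76.8 ± 7.08 CPM (SD, n = 5). In diabetic retinas these means were 69.1 ± 1.58 CPM (SD, n = 5) and 89.5 ± 8.87 CPM (SD, n = 4). The control call was lost without the lens-rich libraries, at an adjusted p-value of 0.0637, and without control ZT17 replicate 3 or replicate 5 alone, at 0.0922 and 0.0507.

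Socs3 in diabetic retinas rose from 2.98 ± 0.502 CPM (SD, n = 5) at ZT9 to 4.58 ± 0.5001 CPM (SD, n = 5) at ZT21. At ZT9 its libraries held 2.64, 3.54, 2.56, 3.52 and 2.65 CPM and at ZT21 they held 4.80, 4.28, 5.29, 4.55 and 3.99 CPM, without overlap. The call was lost in 11 of the fits that left out 1 diabetic library, with adjusted p-values from 0.0534 to 0.0824. These were replicates 1, 3 and 5 at ZT9, 1, 3 and 4 at ZT13, 1 and 3 at ZT17, and 1, 3 and 4 at ZT21. Without the lens-rich and myelin-rich libraries the adjusted p-value was 0.0633.

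For each genotype a gene was called rhythmic where its unadjusted p-value in the empirical JTK_CYCLE test, which ranks libraries against wave shapes, lay under 0.05 and the highest library exceeded the lowest by more than 25%. By this rule 5 of 10 members were rhythmic in control retinas, beside 21.8% of expressed genes, and 4 of 10 in diabetic retinas, beside 23.9%. With adjusted p-values the members were 0 and 2, beside 8.25% and 10.3% of genes. The cosine model of edgeR gave 1 member in control and 2 in diabetic retinas, beside 12.5% and 14.5% of genes. The control call was Edn2, with an adjusted p-value of 0.0137, and it was lost without control ZT9 replicate 5, at 0.0573. Vim and Stat3 were called in each genotype, Lcn2, Edn2 and Fgf2 in control retinas, and Socs3 and Cp in diabetic retinas.

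The called rhythms peaked at 2 times of day. In control retinas Edn2, Fgf2 and Lcn2 had the peak of the fitted cosine (acrophase) late in the light phase, at ZT8.44, ZT8.99 and ZT8.95. Vim and Stat3 peaked in the dark phase, at ZT18.6 and ZT18.8. Without the lens-rich libraries the fitted peak of Vim in control retinas lay at ZT15.9 and that of Stat3 at ZT19.2. In diabetic retinas the called members Vim, Stat3, Cp and Socs3 had acrophases of ZT15.6, ZT17.4, ZT17.9 and ZT20.5, all in the dark phase. Fgf2, Edn2 and Lcn2 were not called there, and their fitted peaks lay at ZT9.97, ZT7.56 and ZT4.01.

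Edn2 had the largest relative amplitude among the rhythmic members in control retinas, 35.5% of its fitted mean, with a p-value of 0.00520 for the rhythm in the JTK_CYCLE test by permutation. It was at 1.70 ± 0.609 CPM (SD, n = 5) at ZT9 and 0.670 ± 0.440 CPM (SD, n = 4) at ZT21. At ZT21 its control libraries held 1.33, 0.436, 0.445 and 0.471 CPM, so that 3 were low and 1 was high. At these levels a library holds few Edn2 reads. The p-value stayed between 0.00111 and 0.0166 when each control library was left out.

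The relative amplitude of Stat3 was 6.21% in controls and 9.73% in diabetics, with permutation p-values of 0.0447 and 0.00133. Socs3 had 14.8% and 20.2%, with p-values of 0.104 and 0.00313. The adjusted p-values in diabetic retinas were 0.0207 for Stat3 and 0.0357 for Socs3. In the fits without 1 library, the calls of Vim and Edn2 in control and of Vim, Stat3, Socs3 and Cp in diabetic retinas were always kept. In control retinas, the call of Fgf2 was lost in 21 of 30 such fits, that of Stat3 in 7 and that of Lcn2 in 4. Without the lens-rich libraries the control call of Lcn2 was lost, at a permutation p-value of 0.0539, and those of Vim, Edn2, Fgf2 and Stat3 were kept. Without the myelin-rich library as well, the adjusted p-value of Socs3 in diabetic retinas was 0.0659.

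A rhythm called in 1 genotype is not shown to differ between them. The difference itself was tested with edgeR as an interaction of genotype with a 24 h cosine, and no member passed, nor did any gene (0%), while 654 genes had an unadjusted p-value under 0.05. With the replicate number as a block, 10 genes passed, and no member. Among the members only Gfap was under 0.05 without adjustment, at 0.0273, with an adjusted p-value of 1.00. Without the lens-rich and myelin-rich libraries its unadjusted p-value in edgeR was 0.267, and the relative amplitude fitted to Gfap in diabetic retinas went from 13.3% with a peak at ZT20.1 to 2.96% with a peak at ZT12.3. The interaction of genotype with time point also called no member and no gene (0%) in edgeR, with 506 genes under 0.05 unadjusted, and 3 genes in DESeq2. The smallest unadjusted p-value of the members in that test was 0.0587, again for Gfap.

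**Figure D3:**
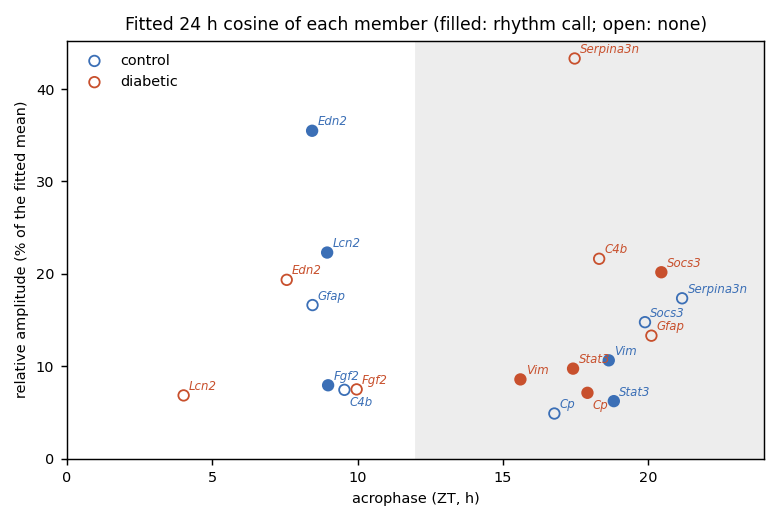
Relative amplitude in percent of the fitted mean (y axis) against acrophase in ZT hours (x axis) of a 24 h cosine fitted to each member in control (blue) and diabetic (orange) retinas; filled points have a rhythm call and grey marks the dark phase. Control Edn2, Lcn2 and Fgf2 lie between ZT8.44 and ZT8.99, and Stat3 lies at ZT18.8 in control and ZT17.4 in diabetic retinas.

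The members were then followed from library to library. After removal of the mean of each genotype and time point, the log2 levels of 15 of the 45 pairs were correlated over the 58 libraries, 13 positively and 2 negatively (permutation within groups, 100000 draws, adjusted p-value under 0.05 over the 45 pairs). Of these, 12 also passed with Spearman's rho. The 15 pairs became 8 without control ZT1 replicate 3 and 9 without control ZT9 replicate 4 or control ZT17 replicate 4. All 45 pairs come from the same libraries, so the 2 genes of a pair share each library's depth and tissue content. The share of pairs of other genes that would pass was not computed, so the count is not a result particular to these members.

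Gfap, Serpina3n, C4b and Edn2 formed a set in which all 6 pairs passed over the 58 libraries. Serpina3n with Edn2 had r = 0.21 in control and 0.52 in diabetic retinas and was lost in 3 of the 58 fits without 1 library. Gfap with Edn2 had r = 0.54 and 0.34. These differences between genotypes were not tested. Gfap with C4b had r = 0.62 and rho = 0.58, with adjusted permutation p-values of 0.000225 and 0.00112. Among controls alone r was 0.59 and among diabetics 0.66, and it was 0.52 without the 2 libraries farthest from the median of Gfap. Serpina3n with C4b had r = 0.55 and rho = 0.53, and Gfap with Serpina3n r = 0.53 and rho = 0.51. Leaving out diabetic ZT21 replicate 4 gave the lowest values of these 3 pairs, 0.54, 0.49 and 0.45, and all 3 remained past the threshold in each of the 58 fits.

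Fgf2 and Cp varied together, with r = 0.58 and rho = 0.50, and adjusted permutation p-values of 0.00120 and 0.00459. Cp varied against Stat3, with r = -0.44 and rho = -0.38, and Fgf2 against Socs3, with r = -0.38 and rho = -0.32, though the latter rho did not pass. Stat3 varied with Lcn2 at r = 0.44 and rho = 0.42.

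**Figure D4:**
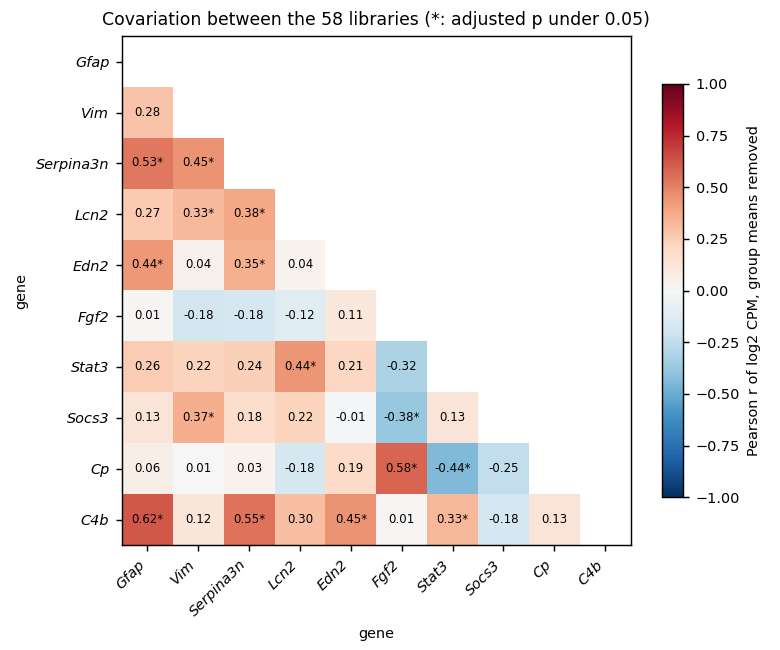
Pearson correlation of each pair of members (rows and columns) over 58 libraries after removal of group means from log2 CPM, as colour from -1 to 1; asterisks mark adjusted permutation p-values under 0.05. The pairs among Gfap, Serpina3n, Edn2 and C4b are positive, up to 0.62, and Stat3 with Cp is negative, at -0.44.

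Markers of other cell types moved with several members. Of 70 relations of the 10 members to 6 marker sums and to the leading axis of variation between libraries, 22 passed after adjustment. The share for other genes was not computed. The sums included retinal pigment epithelium, from 29.5 to 303.5 CPM in control and 24.4 to 328.8 CPM in diabetic retinas. At ZT5 it lay between 36.5 and 151.8 CPM in control and between 24.4 and 35.7 CPM in diabetic libraries. Diabetic libraries at ZT21 held 175.4 to 249.3 CPM. Its part in the time courses and genotype differences of the members was not tested. The astrocyte list, led by Aldh1l1 and Gja1, was correlated with Serpina3n (r = 0.75, rho = 0.75), C4b (r = 0.66, rho = 0.66) and Gfap (r = 0.55, rho = 0.49). The list of cornea and ciliary body, in which Optc was the most abundant gene and Krt14 was at 0 in 53 libraries, was correlated with C4b (r = 0.67, rho = 0.69) and Serpina3n (r = 0.53, rho = 0.55). These 5 had adjusted permutation p-values from 0.000175 to 0.00434, and without the 2 libraries farthest on the marker sum r stayed between 0.51 and 0.75. The summed level of the list of cornea and ciliary body ranged from 0.705 to 37.2 CPM in control and from 2.15 to 25.6 CPM in diabetic retinas, and that of the astrocyte list from 24.3 to 54.1 and from 29.9 to 64.8 CPM. Within the astrocyte list Gja1 ranged most widely, from 2.15 to 29.9 CPM, against 9.12 to 18.0 CPM for Aldh1l1. The astrocyte and the cornea and ciliary sums were both low in control ZT13 replicate 5 (24.3 and 0.713 CPM). Both were high in diabetic ZT13 replicate 1 (60.2 and 25.6 CPM), while control ZT5 replicate 5 held 32.3 and 37.2 CPM. The relation between the 2 lists was not tested. In bulk tissue, more cells of a type and more RNA per cell cannot be told apart, and the part of neighbouring tissue in these levels was not tested.

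Vim followed the Müller glia list (r = 0.54, rho = 0.70), as did Socs3 (r = 0.47, rho = 0.46). The leading axis held 23.7% of the variation between libraries. It rose with Stat3 (r = 0.60, rho = 0.57), Vim (r = 0.52, rho = 0.59) and Lcn2 (r = 0.52, rho = 0.44) and fell with Cp (r = -0.55, rho = -0.51) and Fgf2 (r = -0.53, rho = -0.50). Its part in the genotype difference of Stat3 and Fgf2 was not tested. The genes whose deviations were most like those of Gfap among 18812 tested genes were A2m (r = 0.65), Sema3b (r = 0.64), C4b (r = 0.62), Pcolce (r = 0.61) and Fzd1 (r = 0.58), over 58 libraries and given as likeness only.

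**Figure D5:**
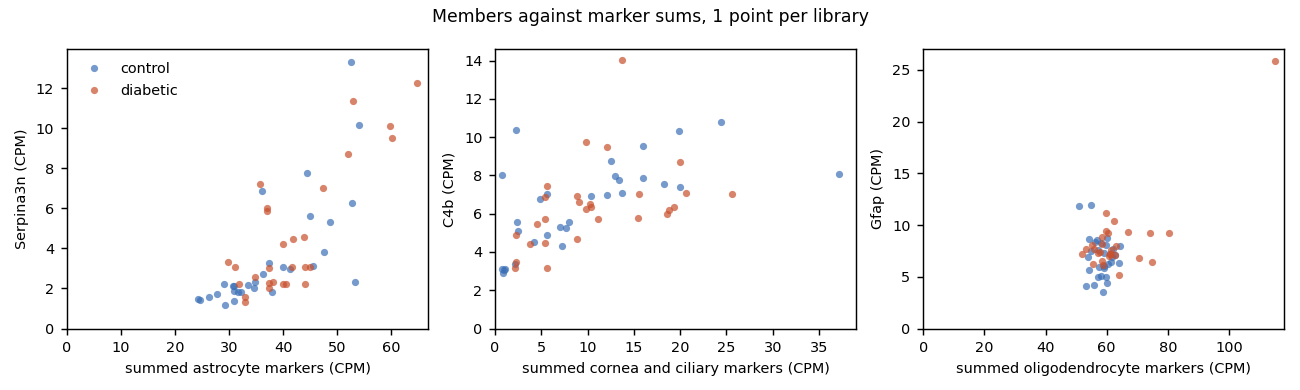
Levels in CPM (y axes) of Serpina3n against summed astrocyte markers (left), C4b against cornea and ciliary body markers (middle) and Gfap against oligodendrocyte markers (right), all sums in CPM (x axes), with 1 point per control (blue) or diabetic (orange) library. Serpina3n rises with the astrocyte sum, and diabetic ZT21 replicate 4 stands alone at 114.9 CPM of oligodendrocyte markers and 25.9 CPM of Gfap.

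Over all time points, where 3.41% of all tested genes passed between genotypes, the other genes of these pathways that passed were Ece2 and Fkbp5. Of 11 tested genes of gp130 and STAT3 signalling none passed, and the smallest unadjusted p-value was that of Pias3, an inhibitor of STAT3, with a log2 fold change of 0.11 ± 0.04 (SE). None of 7 tested STAT3 targets passed, and Pim1 came closest with 0.14 ± 0.06 (SE). Of 6 endothelin genes 1 was lower, the converting enzyme gene Ece2, at 31.6 ± 2.36 CPM (SD, n = 30) in control and 29.5 ± 2.18 CPM (SD, n = 28) in diabetic retinas, with an adjusted p-value of 0.0424 in edgeR. Of 8 FGF ligands and receptors none passed over all time points, and Fgf9 was higher at ZT17, with a log2 fold change of 0.31 ± 0.07 (SE) and an adjusted p-value of 0.0492.

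Of 10 tested genes named for the A1 state of reactive astrocytes 1 was higher, Fkbp5, at 23.9 ± 2.10 CPM (SD, n = 30) in control and 28.1 ± 5.26 CPM (SD, n = 28) in diabetic retinas, with an adjusted p-value of 0.00507. Fkbp5 is also a classical target of the glucocorticoid receptor. None of 6 genes of the A2 state passed, with Tm4sf1 closest at 0.15 ± 0.08 (SE), and none of 4 other pan-reactive genes, with S1pr3 closest at 0.09 ± 0.06 (SE). None of 11 complement genes passed, where the complement inhibitor gene Cfi had -0.30 ± 0.12 (SE), and none of 7 genes of iron handling and acute phase, where A2m had 0.24 ± 0.12 (SE). None of 11 intermediate filament genes passed either. Among the filaments Nes, which encodes nestin, came closest, with a log2 fold change of 0.23 ± 0.07 (SE) and an adjusted p-value of 0.0608. The medians of these lists lay between -0.01 and 0.09, beside 0.00 for all genes.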

How the data were processed

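Total RNA from retinas was depleted of ribosomal RNA, sequenced, aligned with STAR and counted per gene with HTSeq by the authors (GRCm38.p5, Gencode M15; the submitters' processing notes name STAR 2.7.4a, HTSeq 0.11.1 and DESeq2 1.26.0), who deposited raw read counts for 58 libraries. Groups were taken from the sample labels. Counts were tested with edgeR 4.0.16 (TMM scaling, filterByExpr, quasi-likelihood test, Benjamini-Hochberg adjustment over all tested genes): diabetic against control over all time points, at each time point, time effects and interactions. DESeq2 1.42.0 was an alternative. Rhythms were tested with a rewritten empirical JTK_CYCLE and 24 h cosines. Covariation used log2 CPM with a pseudocount of 0.5 and group means removed. Scripts were tested on simulated data. The members and gene lists were chosen with earlier results of these data known. All 10 members are named. Other genes are named as those of each pathway list with an adjusted p-value under 0.05, or else its smallest p-value, or as the 5 most like Gfap. Marker lists are given by their sums, and the single markers named were chosen after their values were seen. Exon lengths and positions came from Gencode M21, matched by symbol, and promoters from RefSeq. Replicates differed by more than sampling noise in all 113 pairs.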

Additional observations from a re-analysis of the deposited data

Results flagged for a closer look

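In 11 of 120 groups of member levels the highest or lowest library lay far from the rest by Dixon's test at the 95% level. Chance flags about 1 in 20 groups. Gfap was at 25.9 CPM in diabetic ZT21 replicate 4, with the others between 6.82 and 9.33 CPM, and Fgf2 was low there, at 20.03 CPM against 21.8 to 22.5 CPM. Gfap was at 11.1 CPM in diabetic ZT9 replicate 3, against 7.34 to 8.21 CPM. Vim was at 141.6 CPM in the lens-rich control ZT1 replicate 6, against 70.5 to 85.9 CPM.

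Serpina3n was at 13.3 CPM in control ZT17 replicate 1, against 2.11 to 5.31 CPM, and at 7.20 CPM in diabetic ZT9 replicate 5, against 1.60 to 3.02 CPM. Edn2 was at 2.51 CPM in control ZT13 replicate 1, against 0.778 to 1.05 CPM, and at 1.33 CPM in control ZT21 replicate 1, against 0.436 to 0.471 CPM. Stat3 was at 74.8 CPM in control ZT9 replicate 4, against 65.1 to 67.7 CPM. Cp was at 164.4 CPM in control ZT21 replicate 1, against 142.9 to 144.4 CPM, and at 144.1 CPM in diabetic ZT9 replicate 2, against 132.6 to 134.2 CPM.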

How the results depend on the processing

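The causes of the changes below were not tested. Over all time points, the 2 members called became 1 with no filter on low counts, without ZT5 or ZT9, and without the lens-rich and myelin-rich libraries (a setting chosen after seeing the data), and 0 without ZT13 or ZT21. The 591 genes called became 387 with no filter, 945 with time point as a factor, 321, 255, 352, 263 and 232 without ZT1, ZT5, ZT9, ZT17 and ZT21, and 389 without the lens-rich and myelin-rich libraries. For the time effect, 1 member in control retinas became 0 with no filter or without the lens-rich libraries, with or without the myelin-rich one, and 2 in DESeq2, and 2 members in diabetic retinas became 1 with no filter or without the lens-rich and myelin-rich libraries. DESeq2 called 3 genes for the interaction, and 4, 27, 4, 90 and 4 genes at ZT1, ZT5, ZT9, ZT17 and ZT21, where edgeR called 2, 4, 1, 33 and 0. No filter gave 3 genes for the difference in rhythm and 1, 3 and 1 at ZT1, ZT9 and ZT21. Without the lens-rich libraries, 4 and 0 genes were called at ZT1 and ZT9, and without the myelin-rich one as well 4, 2 and 0 at ZT1, ZT5 and ZT9. Rhythmic members in control retinas fell from 5 to 0 with adjusted p-values and 1 with the edgeR cosine, and in diabetic retinas from 4 to 2 with these or with the fold taken between time point means. Rhythmic genes fell from 4169 to 1574, 2358 and 2529 in control and from 4567 to 1967, 2731 and 2712 in diabetic retinas.

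Values near 0 changed sign. Vim was -0.00974, -0.00722 and -0.00448 without ZT5, ZT9 and ZT13. Edn2 was -0.0402, -0.00558, -0.000687 and -0.0354 without ZT1, ZT13, ZT17 and ZT21, and -0.0569 without the lens-rich and -0.0578 without the lens-rich and myelin-rich libraries. Socs3 was 0.0196, 0.0338 and 0.00892 without ZT1, ZT9 and the lens-rich libraries, and C4b 0.102 and 0.0434 without ZT5 and ZT9.

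With single libraries left out, the log2 fold changes ranged from -0.00124 to 0.0466 for Vim, -0.0349 to 0.0811 for Edn2, -0.0339 to 0.0112 for Socs3 and -0.0843 to 0.0172 for C4b. Members called ranged from 1 to 2 over all time points, 0 to 3 and 1 to 2 for the time effect in control and diabetic retinas, 0 to 1 at ZT17, and 2 to 6 for the rhythm in control retinas. Genes called ranged from 0 to 2 for the interaction, 0 to 9 for the difference in rhythm, and 0 to 4, 2 to 5, 0 to 2, 0 to 1, 3 to 93 and 0 to 1 at ZT1, ZT5, ZT9, ZT13, ZT17 and ZT21. Correlated pairs ranged from 8 to 16.

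Libraries with the same replicate number had correlated deviations over 0.1 in 19 of 26 pairs (r from -0.31 to 0.71). Pairs with different numbers were not compared, so whether the numbers mark a shared block was not settled. The labels name no shared animal or batch, and the main fits did not use the numbers. With the replicate number as a block, 3 members had a time effect in control retinas (Stat3, Vim and Edn2, with adjusted p-values of 0.00777, 0.0196 and 0.0397), 8, 3, 62 and 13 genes were called at ZT5, ZT9, ZT17 and ZT21, 10 for the difference in rhythm, and Edn2 was -0.0351.

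Edn2, Lcn2 and Serpina3n had the fewest reads, with medians of 16, 30 and 39 per library. Their 95% intervals over all time points ran from -0.30 to 0.30, from 0.03 to 0.48 and from -0.05 to 0.87 on the log2 scale, and that of Stat3 from 0.08 to 0.21. The part of depth in these widths was not tested.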
